A study of Mus musculus with 25 samples.

Results

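RNA sequencing of sorted microglia was compared between homozygous and heterozygous conditional knockouts of Bin1, to ask how the microglia of mice that had lost both neuronal copies of the gene differed from those of mice that kept one. The homozygous group (Homo-cKO, genotype Bin1 flox/flox Thy1-Cre+) held 10 mice, 5 females and 5 males, and the heterozygous group (Het-cKO, genotype Bin1 flox/wt Thy1-Cre+) held 7 mice, 4 females and 3 males. These 17 mice were all those whose column in the count table carried a homozygous or heterozygous name, out of 23 columns in the table and 25 labelled samples, and the 6 WT columns were left out. Every mouse was 3 months of age, carried at least 1 floxed Bin1 allele (B6.129S6-Bin1tm2Gcp/J) and carried the Cre transgene (FVB/N-Tg(Thy1-cre)1Vln/J), so Cre itself did not differ between the groups. The study used this transgene to delete Bin1 after birth in excitatory neurons of the forebrain. A change in the sorted cells was thus measured outside the cells in which the floxed allele was meant to be recombined. Recombination in the sorted cells was not measured here. Brains without cerebellum and olfactory bulbs were dissociated, CD11b+ CD45med cells were sorted, and 1 library was made from each mouse. The animal numbers in the sample names were of the 02xx range in all 7 Het-cKO mice and of the 03xx (6 mice) or 04xx (4 mice) range in the Homo-cKO mice, so the number range and the genotype cannot be told apart.

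Microglia are the resident macrophages of the brain. In the healthy brain they hold a surveying state marked by receptors such as P2ry12 and Cx3cr1, take up debris and lipoprotein particles by endocytosis, and degrade them in lysosomes, from which cholesterol is exported by Npc1 and Npc2. After stimulation they transcribe immediate-early genes, cytokines and interferon-stimulated genes within a short time, and in models of neurodegeneration they gain a set of genes that includes Clec7a, Axl and Cst7 and lose part of their homeostatic set. Bin1 encodes a membrane-curving protein of the endocytic pathway and is among the loci at which common variants are associated with Alzheimer's disease of late onset.

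Total expected counts per mouse ranged from 10812969 to 16734846 (median 13474921.5 in the Homo-cKO and 12424691 in the Het-cKO mice), and 15865 to 17268 genes had a count. Levels are given as CPM, counts scaled to the library total after TMM normalization, in the order lowest, median and highest mouse of a group. The microglial markers P2ry12, Cx3cr1, Csf1r, Tmem119 and Siglech were abundant in every mouse, and the lowest of their levels was 1768 CPM, that of Siglech in a Homo-cKO mouse. The targeted gene, Bin1, was read in the sorted cells at 332, 474 and 685 CPM in the Homo-cKO mice and 636, 705 and 748 CPM in the Het-cKO mice, and 8 of the 10 Homo-cKO mice lay below all Het-cKO mice while Homo-cKO F2 and F3 lay among them. The difference passed the test but not the fold threshold used below (log2 fold change -0.53, SE 0.12, adjusted p = 0.00526), which it did pass when Homo-cKO M2 was left out (log2 fold change -0.585), without the 4 Homo-cKO mice of high Fos described below (-0.59, adjusted p = 0.00431) and with the 04xx mice alone (-0.61, adjusted p = 0.00395). Since the deletion was aimed at neurons, this value checks the genotype labels only in part.

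Of 12354 genes tested, 732 were differentially expressed genes (DEGs), taken as an adjusted p below 0.05 in edgeR's quasi-likelihood test and a change of more than 1.5-fold (0.585 on the log2 scale). The Homo-cKO mice were lower in 457 of them (3.7% of the genes tested) and higher in 275 (2.23%), so that 62.4% of the DEGs were lower. Without the fold threshold the split was even, with 1361 lower genes (11%) and 1371 higher genes (11.1%), and the median log2 fold change over all genes was 0.00593 with 49.1% of genes negative. The excess of lower DEGs also depended on the scaling, because normalization by total counts, which moved the median of all genes to 0.0688, gave 346 lower and 370 higher DEGs (48.3% lower). Under that scaling Sparc, Edem2, Zfhx3, Herc2, Chd4, Il7r, Med13l, Plbd2, Gaa and Dst missed the fold threshold with log2 fold changes of -0.58 to -0.53, and kept an adjusted p of at most 0.00356. Many of the lower DEGs were of low level, and at a mean of at least 5 on the log2 CPM scale there were 70 lower and 56 higher DEGs. The 10 Homo-cKO mice lay below all 7 Het-cKO mice in 111 genes (0.898%), of which 38 were lower DEGs, and above all of them in 191 (1.55%), of which 47 were higher DEGs.

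**Figure D1:**
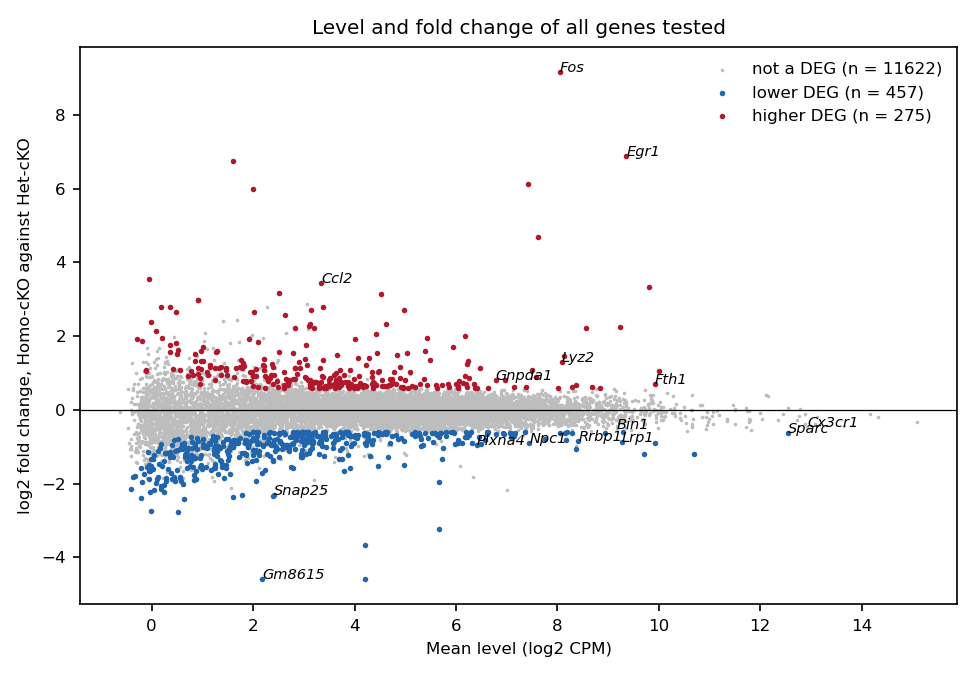
Log2 fold change of Homo-cKO against Het-cKO mice (vertical axis) by mean level (log2 CPM, horizontal axis), with 1 point for each of the 12354 genes tested. The 457 lower DEGs (blue) are densest at low levels, and Sparc and Cx3cr1 lie at the far right, where few genes moved.

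The 4 Homo-cKO mice F1, F2, M1 and M2, all of the 03xx range, had Fos levels of 839 to 1476 CPM, while the other 6 Homo-cKO mice had 0.368 to 7.13 CPM and the Het-cKO mice 0.255 to 1.29 CPM. The comparison was therefore repeated without these 4 mice, which left 248 lower DEGs, 202 of them shared with the 457, and 185 higher DEGs, 149 of them shared with the 275. With the 6 mice of the 03xx range alone against the Het-cKO mice there were 419 lower DEGs (312 shared), and with the 4 mice of the 04xx range alone there were 266 (175 shared). Each of these fits had fewer mice than the whole comparison. Without the 4 Fos-high mice Zfhx3 (-0.55), Herc2 (-0.58), Chd4 (-0.58), Med13l (-0.54), Plbd2 (-0.53) and Dst (-0.53), all described below, stayed lower at an adjusted p of at most 0.0195 but missed the fold threshold, and Eno1b, Wdfy1, Cd209f, Clu, Aldoc, mt-Rnr1 and Xist no longer passed the test (adjusted p of 0.0504 to 0.188).

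The lower gene with the smallest p was Sparc, a secreted matrix-binding glycoprotein that microglia express at a high level. It measured 4216, 4823 and 5403 CPM in the Homo-cKO mice and 6307, 7462 and 8418 CPM in the Het-cKO mice, with no overlap between the groups (log2 fold change -0.63, SE 0.045, adjusted p = 1.99e-07). When each mouse was left out in turn its log2 fold change stayed between -0.66 and -0.61. Rrbp1, a ribosome-binding protein of the endoplasmic reticulum, was at 231, 253 and 294 CPM in the Homo-cKO mice and 331, 467 and 559 CPM in the Het-cKO mice (log2 fold change -0.85, SE 0.077, adjusted p = 2.92e-06). The groups were separate for Rrbp1 as well, and also for Npc1, the cholesterol exporter of late endosomes and lysosomes, at 95.2, 134 and 149 CPM in the Homo-cKO mice and 191, 245 and 262 CPM in the Het-cKO mice (log2 fold change -0.88, SE 0.082, adjusted p = 2.92e-06). Plxna4, a semaphorin receptor, was at 45, 61.5 and 81.8 CPM in the Homo-cKO mice and 98.3, 119 and 138 CPM in the Het-cKO mice (log2 fold change -0.95, SE 0.10, adjusted p = 1.68e-05), and the unconventional myosin Myo18b was at 9.13, 12.3 and 15.1 CPM in the Homo-cKO mice and 22.2, 26.7 and 47.9 CPM in the Het-cKO mice (log2 fold change -1.26, SE 0.15, adjusted p = 3.47e-05). None of these 5 genes lost its call in any of the 17 fits that left out a mouse.

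Of the 10 lower DEGs of smallest p with a standard symbol, the other 5 were Ppp1r9a, Zfhx3, Herc2, Chd4 and Edem2. Ppp1r9a, which encodes the actin-binding protein neurabin, was at 39.1, 48.2 and 67 CPM in the Homo-cKO mice and 69.9, 86.8 and 112 CPM in the Het-cKO mice (log2 fold change -0.90, SE 0.11, adjusted p = 7.85e-05), with all 10 Homo-cKO mice below the Het-cKO mice. The transcription factor Zfhx3, the ubiquitin ligase Herc2 and the chromatin remodeler Chd4 were separate between the groups in the same way, with log2 fold changes of -0.63, -0.63 and -0.63 (adjusted p = 8.58e-05, 7.85e-05 and 9.87e-05). These 3 lay close to the fold threshold and crossed it when a single Het-cKO mouse was left out, Zfhx3 and Chd4 without M1 (-0.579 and -0.584) and Herc2 without M4 (-0.584), while their adjusted p stayed at or below 0.000433 in all these fits. Edem2, a component of the disposal of misfolded glycoproteins from the endoplasmic reticulum, fell by 0.61 on the log2 scale (adjusted p = 8.58e-05), and by 0.565 without Homo-cKO F5.

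The lower DEGs without overlap and with the highest mean levels also included the interleukin 7 receptor Il7r, the lysosomal protein Plbd2 and the Mediator subunit Med13l. Il7r was at 23.9, 43.1 and 56.9 CPM in the Homo-cKO mice and 57.2, 65.2 and 69.1 CPM in the Het-cKO mice (log2 fold change -0.62, SE 0.12, adjusted p = 0.00186), and it crossed the fold threshold without Homo-cKO F1 (-0.575) or M3 (-0.556). Plbd2 measured 103, 140 and 160 CPM in the Homo-cKO mice and 174, 203 and 220 CPM in the Het-cKO mice (log2 fold change -0.59, SE 0.091, adjusted p = 0.000345). Med13l measured 32.4, 46.2 and 52.4 CPM in the Homo-cKO mice and 53.9, 74.4 and 78.4 CPM in the Het-cKO mice (log2 fold change -0.60, SE 0.092, adjusted p = 0.000328). Both lay close to the fold threshold, and Med13l crossed it without Het-cKO F1, F4, M1 or M4 or Homo-cKO F1 (-0.579 to -0.545), and Plbd2 without Het-cKO F1, F3 or F4 or Homo-cKO F1, F2, F3 or M2 (-0.585 to -0.545), with an adjusted p of at most 0.00134 throughout.

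**Figure D2:**
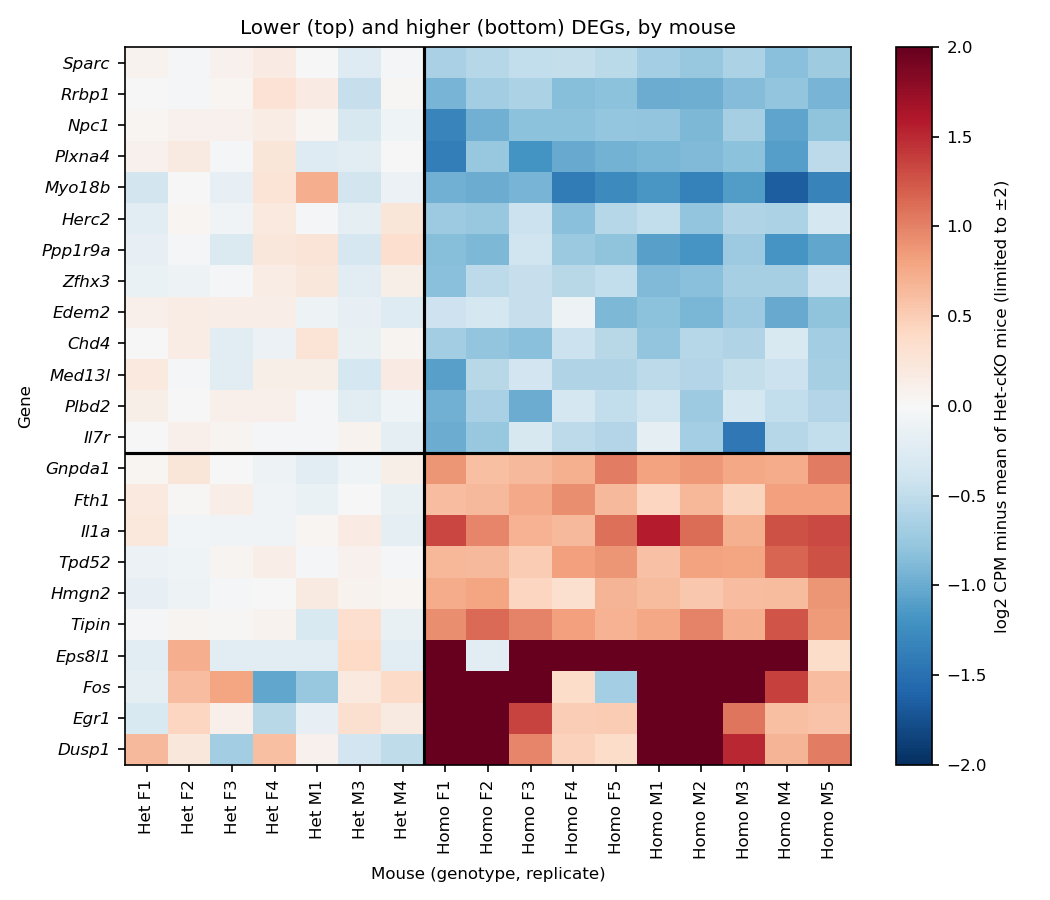
Level of 13 lower DEGs (top) and 10 higher DEGs (bottom) in each of the 17 mice, as log2 CPM minus the mean of the Het-cKO mice, with the color scale limited at 2 in either direction. The lower genes were chosen by smallest p or by no overlap between the groups. Their shift in nearly all Homo-cKO columns follows from that choice and is not a result. Fos, Egr1 and Dusp1 are far above the Het-cKO level in Homo-cKO F1, F2, M1 and M2 and close to it in F4 and F5.

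Of the 52 lysosomal genes listed, all of which were tested, 40 had a negative fold change and the median was -0.116. Npc1, Sgsh, Arsb and Gaa were lower DEGs, 12 members were lower and 3 higher at an adjusted p below 0.05, and no member was a higher DEG. Over all genes tested 3.7% were lower DEGs, and 11% were lower and 11.1% higher at an adjusted p below 0.05. Sgsh, a sulfatase of the breakdown of heparan sulfate, was at 13.5, 26 and 67.5 CPM in the Homo-cKO mice and 64.5, 84.9 and 97.7 CPM in the Het-cKO mice (log2 fold change -1.32, SE 0.24, adjusted p = 0.00107). Homo-cKO F2 (60.2 CPM) and M1 (67.5 CPM) lay close to the Het-cKO level of Sgsh, and the other 8 lay between 13.5 and 30.1 CPM. Gaa, the acid alpha-glucosidase that breaks down glycogen, was at 160 to 282 CPM in the Homo-cKO mice and 265 to 401 CPM in the Het-cKO mice (ranges) (log2 fold change -0.61, SE 0.11, adjusted p = 0.000952), and it crossed the fold threshold without Het-cKO F3 (-0.572) or Homo-cKO F1 (-0.566) or F3 (-0.558). Ctsa, the protective protein of lysosomal galactosidase and sialidase, fell by 0.37 on the log2 scale with all 10 Homo-cKO mice below the Het-cKO mice (adjusted p = 0.00089). Against this direction, Cd63, a tetraspanin of late endosomes, and the protease Ctsl were higher by 0.52 and 0.41 (adjusted p = 0.000492 and 0.0315), both under the fold threshold, which both passed without the 4 Fos-high mice (0.60 and 0.59).

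The promoters of lysosomal genes often carry the E-box CACGTG, a palindrome contained in the sequence bound by transcription factor EB and its relatives. CACGTG was found in the 250 bases before the start site of 11 of 42 matched lysosomal genes (26.2%), of 774 of 8956 matched genes tested (8.64%) and of 1634 of 27025 mouse promoters (6.05%), in RefSeq promoters of GRCm38.p6. Of the 3 lower lysosomal DEGs with a matched promoter, Gaa and Sgsh held it, and their sequences are shown because both genes fell and lie on the same chromosome (Gaa at chr11:119267713-119267962 on the plus strand, Sgsh at chr11:119355511-119355760 on the minus strand), with the E-box in capitals.
Gaa: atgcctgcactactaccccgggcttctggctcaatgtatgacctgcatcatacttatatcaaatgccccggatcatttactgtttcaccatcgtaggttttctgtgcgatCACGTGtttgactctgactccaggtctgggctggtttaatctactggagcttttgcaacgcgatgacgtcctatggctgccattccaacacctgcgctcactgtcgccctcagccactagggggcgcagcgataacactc
Sgsh: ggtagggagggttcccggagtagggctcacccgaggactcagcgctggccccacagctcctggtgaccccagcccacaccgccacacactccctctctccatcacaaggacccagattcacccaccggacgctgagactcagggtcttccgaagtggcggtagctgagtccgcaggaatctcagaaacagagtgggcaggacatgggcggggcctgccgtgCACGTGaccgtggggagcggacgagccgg
The E-box began 140 bases before the start of Gaa and 29 bases before that of Sgsh. A match of these letters is a description of the window and not a measure of binding.

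Enzymes that build and trim glycans in the endoplasmic reticulum and Golgi had 25 of 31 tested members negative and a median of -0.297. Man2a2, a Golgi mannosidase (-0.80, adjusted p = 0.00181), the sulfotransferases Chst10 (-0.90, adjusted p = 0.0028) and Hs3st2 (-1.62, adjusted p = 0.00579), and Edem2 were lower DEGs, and the sulfotransferase Chst1 was a higher DEG (1.42, adjusted p = 0.00475). At an adjusted p below 0.05 there were 15 lower members and 1 higher member. The shares over all genes tested were 11% lower and 11.1% higher, with 3.7% lower DEGs. The sulfotransferase Chst7 measured 77.5, 115 and 128 CPM in the Homo-cKO mice and 144, 168 and 192 CPM in the Het-cKO mice, with no overlap, and fell by 0.58 on the log2 scale (adjusted p = 0.000395), just under the fold threshold. Mgat1, which opens the way from high-mannose to complex N-glycans, and the mannosidase Man1a2 fell by 0.46 and 0.37 on the log2 scale (adjusted p = 0.00125 and 0.00148).

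Endocytic and lipoprotein receptors had 15 of 20 members negative with a median of -0.281, and 8 were lower and 1 higher at an adjusted p below 0.05. For the lists of this paragraph, the shares over all genes tested were 11% lower and 11.1% higher at that threshold. Lrp1, a large receptor for apolipoprotein E, alpha-2-macroglobulin and many other ligands, was at 289, 471 and 683 CPM in the Homo-cKO mice and 618, 851 and 950 CPM in the Het-cKO mice (log2 fold change -0.86, SE 0.13, adjusted p = 0.000243), with 9 of 10 Homo-cKO mice below all Het-cKO mice. The phosphatidylserine receptor Axl was a higher DEG, described with the disease-associated genes. Genes of cholesterol synthesis had 17 of 22 members negative (median -0.143), with 6 members lower at an adjusted p below 0.05. Srebf2, the main transcription factor of that pathway, fell by 0.56 on the log2 scale (adjusted p = 0.000624), and the synthetic enzyme Cyp51 by 0.43 (adjusted p = 0.00695). Among 12 targets of the liver X receptors the median was -0.259 with no DEG, 4 lower and 1 higher member, and the cholesterol transporter Abcg1 fell by 0.43 on the log2 scale (adjusted p = 0.00203).

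Chromatin regulators had 34 of 36 members negative and a median of -0.379, and 26 of them passed an adjusted p below 0.05, all in the lower direction. The background for that direction was 11% of the genes tested. Chd4, the histone methyltransferases Kmt2b (-0.71, adjusted p = 0.000854) and Ash1l (-0.80, adjusted p = 0.047), and the nucleosome remodeler Bptf (-0.86, adjusted p = 0.0054) were DEGs. The call of Ash1l held only when Het-cKO F2, F3 or M3 or Homo-cKO F3 or F5 was left out and was lost without any other mouse (adjusted p of 0.0509 to 0.123). The number of DEGs on this list was 2 without Het-cKO M1, 7 without Het-cKO F3 or Homo-cKO F3, and 8 without Het-cKO M3. The acetyltransferase gene Crebbp and the corepressor gene Ankrd11 fell by 0.47 and 0.52 on the log2 scale (adjusted p = 0.000118 and 0.000208), each with all 10 Homo-cKO mice below the Het-cKO mice, and the remodeler gene Arid1a by 0.48 (adjusted p = 0.000389).

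Genes of actin binding, motors and mechanosensing had 26 of 31 members negative (median -0.291), and 16 were lower and none higher at an adjusted p below 0.05, against 11% lower over all genes. Their 7 lower DEGs (3.7% over all genes) were the cytoskeletal linkers Macf1 and Dst, the dynein heavy chain Dync1h1, the Arf GTPase-activating protein Arap2, the mechanosensitive channel Piezo1, the actin crosslinker Actn1 and the formin Diaph1. Macf1 measured 178 to 314 CPM in the Homo-cKO mice and 307 to 477 CPM in the Het-cKO mice (ranges) (log2 fold change -0.82, SE 0.11, adjusted p = 0.000136). Dync1h1 measured 43, 58.6 and 77.2 CPM in the Homo-cKO mice and 69.8, 100 and 106 CPM in the Het-cKO mice (log2 fold change -0.73, SE 0.10, adjusted p = 0.000138). For both genes 9 of the 10 Homo-cKO mice lay below all Het-cKO mice. Piezo1, Arap2, Actn1 and Diaph1 had log2 fold changes of -0.95, -0.93, -1.03 and -0.82, and Dst (-0.65) crossed the fold threshold without Het-cKO M1 (-0.564).

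Many of these genes are long, and the fold changes followed transcript length. Among protein-coding genes grouped into 10 bins by transcript length, the median log2 fold change went from 0.107 in the shortest bin (median 1068 nt) to -0.193 in the longest (median 7982 nt). The longest bin held 94 lower DEGs among 1077 genes (8.73%) and 7 higher DEGs (0.65%), and the shortest bin held 15 lower (1.39%) and 41 higher (3.81%). The 281 lower protein-coding DEGs had a median transcript length of 4566 nt, against 2459 nt for the higher DEGs and 3363 nt for all 10764 protein-coding genes. The same was seen at high levels, since of the genes whose mean reached 5 on the log2 CPM scale 75.6% of 484 genes in the longest bin were negative, against 27.2% of 427 in the shortest. Genes of higher GC content were also lower on median, from 0.105 in the bin of lowest GC to -0.0707 in the bin of highest GC.

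The shift of the longest bin was present in single mice, and that of the shortest bin was not seen in all of them. As a deviation from the mean of all 17 mice, the median log2 CPM of the longest bin was -0.127, -0.0824 and 0.0285 (lowest, median and highest) in the Homo-cKO mice and 0.0656, 0.102 and 0.218 in the Het-cKO mice, with no overlap. The shortest bin overlapped, at -0.066, 0.062 and 0.132 in the Homo-cKO mice and -0.12, -0.0667 and 0.0368 in the Het-cKO mice. In Homo-cKO M1 and M4 the longest bin (-0.0424 and 0.0285) lay above the shortest (-0.066 and -0.0341). A fit with offsets for GC content and exonic length in each mouse brought the longest bin to -0.0773 with 37 lower DEGs and the shortest to 0.0648, and it kept 376 of the 457 lower DEGs among 445. Under these offsets the chromatin regulators had a median of -0.196 with 29 of 36 negative, and the actin and motor genes had -0.126 with 22 of 31 negative. Lrp1 (-0.55), Dync1h1 (-0.49), Gaa (-0.55), Kmt2b (-0.54), Zfhx3 (-0.40), Herc2 (-0.41), Med13l (-0.36), Plbd2 (-0.51) and Dst (-0.42) then fell short of the fold threshold with an adjusted p of at most 0.0133. The part of length and of RNA or library quality in these differences was not tested.

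**Figure D3:**
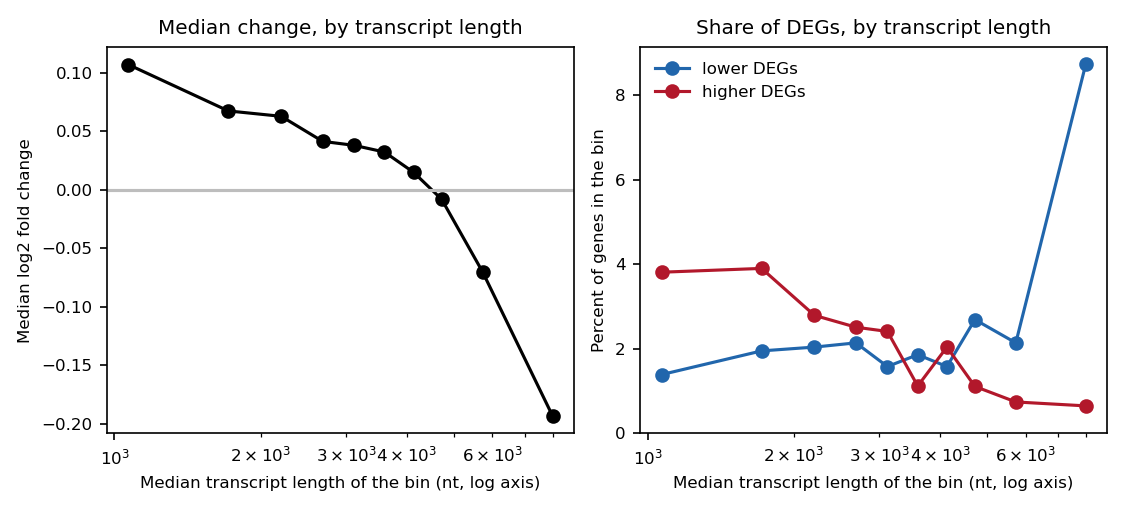
Median log2 fold change of Homo-cKO against Het-cKO mice (left) and percent of genes that were lower (blue) or higher (red) DEGs (right), in 10 bins of protein-coding genes by transcript length (nt, log axis, plotted at the bin median). The median crosses 0 near the eighth bin and falls to -0.193 in the longest, where 8.73% of genes were lower DEGs.

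The homeostatic microglial genes shifted by less than the fold threshold but in many members. Of 21 tested, 18 were negative with a median of -0.188, and 12 were lower and 1 higher at an adjusted p below 0.05, while Sparc, which is on this list, was the only DEG. All genes tested gave 11% lower and 11.1% higher at that threshold. The fractalkine receptor Cx3cr1 was at 5763, 6814 and 7254 CPM in the Homo-cKO mice and 7587, 9409 and 10507 CPM in the Het-cKO mice, with no overlap (log2 fold change -0.45, SE 0.055, adjusted p = 5.04e-05). Selplg and Tmem119 were separate between the groups as well and fell by 0.39 and 0.38 on the log2 scale (adjusted p = 0.000203 and 0.000224). Csf1r, the receptor on which microglia depend for survival, fell by 0.43 on the log2 scale (adjusted p = 0.00332), and P2ry12 by 0.19 (adjusted p = 0.0393). Siglech, at -0.13, did not pass the test (adjusted p = 0.172).

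Transcripts of other brain cells made up many of the largest falls, although their levels were low. Of 16 neuronal and synaptic genes tested, 13 were negative and 9 were lower DEGs (3.7% over all genes tested), with a median of -1.56. Their summed level was 37 to 47.7 CPM in the Homo-cKO and 54.6 to 84.6 CPM in the Het-cKO mice. Snap25, a SNARE protein of synaptic vesicle release, was at 0.786, 1.72 and 3.58 CPM in the Homo-cKO mice and 4.83, 10.1 and 17.7 CPM in the Het-cKO mice (log2 fold change -2.32, SE 0.33, adjusted p = 0.000203). The postsynaptic calmodulin-binding gene Nrgn was at 0.0735, 0.356 and 0.676 CPM in the Homo-cKO mice and 1.12, 2 and 5.37 CPM in the Het-cKO mice (log2 fold change -2.77, SE 0.40, adjusted p = 2e-04). Neither gene overlapped between the groups, nor did Ndrg4 (-1.92), while 1 Homo-cKO mouse overlapped for Vsnl1 (-2.73). Only 16 of the 35 listed genes passed the count filter, which needs enough counts in only as many mice as the smaller group held. A gene near the floor, such as Nrgn, could thus pass through the Het-cKO mice alone. The counts and the median describe the genes tested and not the whole list, and the same limit applies to the other cell lists below. In bulk samples such as these, fewer cells of a type and less RNA per cell cannot be told apart.

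Of 9 oligodendrocyte genes all were negative (median -0.817) and 5, among them Car2, Mobp, Plekhb1 and Sept4, were lower DEGs, a number that was 3 without Het-cKO F1, without Het-cKO M1 and without the 4 Fos-high mice, and 1 with the 04xx mice alone. For the lists of this paragraph, the share of lower DEGs over all genes tested was 3.7%. The myelin gene Mobp was at 0.302, 2.55 and 4.69 CPM in the Homo-cKO mice and 4.03, 5.21 and 13.4 CPM in the Het-cKO mice (log2 fold change -1.62, SE 0.38, adjusted p = 0.00602). The summed level of the list was 160 to 220 CPM in the Homo-cKO and 197 to 241 CPM in the Het-cKO mice. Of 7 astrocyte genes 5 (Mt3, Clu, Aldoc, Sparcl1 and Aldh1l1) were lower DEGs (median -1.07), 2 without Het-cKO F1 or M4, 3 without Homo-cKO F1, F3 or M3, and 1 without the 4 Fos-high mice or with the 04xx mice alone, and the summed level overlapped (at most 316 CPM in the Homo-cKO and 323 CPM in the Het-cKO mice). Mt3 led them at 0.0762, 0.185 and 0.676 CPM in the Homo-cKO mice and 0.852, 1.13 and 1.36 CPM in the Het-cKO mice (log2 fold change -2.13, SE 0.40, adjusted p = 0.00126).

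Enpp2 and Ttr, which the choroid plexus expresses strongly, had the largest falls of the genes with a standard symbol (-4.58 and -3.66, adjusted p = 0.000833 and 0.00239). Enpp2 measured 0, 1.71 and 5.05 CPM in the Homo-cKO mice and 0, 23 and 184 CPM in the Het-cKO mice, and Ttr measured 0, 1.07 and 11 CPM in the Homo-cKO mice and 2.13, 22.9 and 175 CPM in the Het-cKO mice. A single library, Het-cKO M3, held the highest value of both, Het-cKO M1 was at 0 and 2.13 CPM, and the groups overlapped for both genes. Neither passed by limma-voom (adjusted p = 0.201 and 0.0749). Pdgfrb, a pericyte receptor, fell by 2.33 on the log2 scale (adjusted p = 0.00712), and 3 of the Homo-cKO mice (F2, F3 and F4, 3.43 to 10.6 CPM) had far more of it than the other 7 (0.136 to 1.28 CPM). The 11 border macrophage genes had a median of -0.279 with 1 lower DEG (3.7% over all genes tested), Cd209f (-1.58, adjusted p = 0.0364), which was lost without any 1 of 9 mice (Het-cKO F1, F2, F3 and M1, Homo-cKO F1, F2, F4, F5 and M2, adjusted p of 0.0501 to 0.0839). The neutrophil genes S100a8 and S100a9 were at 0 in at least 1 mouse of each group and did not pass the test (adjusted p = 0.153 and 0.0668). The part of these other cells in the remaining lower genes was not tested.

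By annotation, the lower DEGs were not limited to protein-coding genes. Of 294 tested models of the class TEC, gene models that await experimental testing and are mostly single-exon transcripts within or beside other genes, 74 were lower DEGs (25.2%) and 1 was higher (0.34%), and the class had a median of -0.672. Of protein-coding genes 2.61% were lower and 2.11% higher. The TEC count was 38 without Het-cKO F4 and 44 without Het-cKO M1 or M4, 50 of 295 with the 03xx mice alone, 20 of 352 with the 04xx mice alone, and 18 of 312 without the 4 Fos-high mice, and it rose to 99 with the offsets for GC content and exonic length. When every model with any count was tested, 72 of 1087 were lower DEGs and 6 were higher. Long intergenic noncoding RNAs had 29 lower and 13 higher DEGs of 233, and antisense models 21 and 8 of 265. The libraries did not record strand, so that reads of such models and of the genes they overlap cannot be told apart. Transcripts that share sequence with ribosomal RNA or are ribosomal RNA also fell: CT010467.1 measured 724, 1019 and 1972 CPM in the Homo-cKO mice and 1470, 2631 and 3998 CPM in the Het-cKO mice (log2 fold change -1.18, SE 0.21, adjusted p = 0.000977), and the mitochondrial ribosomal RNA gene mt-Rnr1 fell by 0.66 on the log2 scale (adjusted p = 0.00924), or by 0.545 without Het-cKO M1. CT010467.1 shares 71.1% of its 25-base sequences with Gm42418, which fell by 0.93 (adjusted p = 0.0044), and reads of the pair cannot be assigned with certainty.

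In a subset of DEGs the Homo-cKO mice did not shift together but lay on separate levels. Among the 484 DEGs whose mean level reached 2 on the log2 CPM scale, 19 met a rule chosen after the values were seen. Of these, 10 were lower and 9 higher. The rule asked for a gap of more than 2-fold within the Homo-cKO group with at least 2 mice on each side. It also asked that all Het-cKO mice had counts and spanned at most 2-fold, which left out genes such as Fos. In all 9 of the higher genes (Ccl3, Ccl4, Egr1, Jun, Junb, Jund, Gm11175, Zfp36 and Ppp1r15a) the same 4 mice, F1, F2, M1 and M2, stood away from the Het-cKO level. In the 10 lower genes the mice above the gap were not one fixed set, although Nbl1 and Eno1b had the same 3 (F1, F3 and F4). For the macrophage pore-forming protein gene Mpeg1 (chr19:12460779-12465283), Homo-cKO F2, M2 and M3 were at 1070 to 1224 CPM, within the Het-cKO range of 924 to 1414, and the other 7 at 223 to 403. The lysosomal arylsulfatase gene Arsb (chr13:93771630-93943016) was at 897 to 1232 CPM in F1, F3, F4, M1 and M2 and at 281 to 443 in the other 5, against 1016 to 1695 in the Het-cKO mice.

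For the protein C receptor gene Procr (chr2:155751117-155755471) the 4 mice near the Het-cKO level of 37.4 to 54.7 CPM were F1, F2, F3 and F4, at 35.3 to 49.2, and the other 6 were at 4.13 to 9. For the cyclin gene Ccnd1 (chr7:144929931-144939925), F2, M1 and M2 were at 98 to 120 CPM and the other 7 at 33.2 to 48.2, against 88.2 to 129 in the Het-cKO mice. Nbl1, a secreted antagonist of bone morphogenetic proteins, and Mxra8, a cell adhesion molecule, lie on the same chromosome (chr4:139082284-139092993 and chr4:155839680-155844088), and F1 and F3 were above the gap in both, with F4 for Nbl1 and M1 for Mxra8. For Mxra8 only 1 of these 3 mice was within the Het-cKO range. The call of Mxra8 (-1.96, adjusted p = 0.0496) was lost in 14 of the 17 fits that left out a mouse, all but those without Homo-cKO F1, F3 or M1 (adjusted p of 0.059 to 0.0781 in the 14). Wdfy1, Adcy8, Ddx23 and Eno1b completed the 10. The call of Wdfy1 (-0.63, adjusted p = 0.0401) was lost in 12 such fits (adjusted p of 0.0504 to 0.0803), held only without Het-cKO F3 or Homo-cKO F1, F2, F4 or M3, and that of Ddx23 (-1.32) without Het-cKO M4 (adjusted p = 0.06). In each of the 10 genes the highest Het-cKO mouse was less than 2-fold above the lowest, which the rule required and which is therefore not a result.

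**Figure D4:**
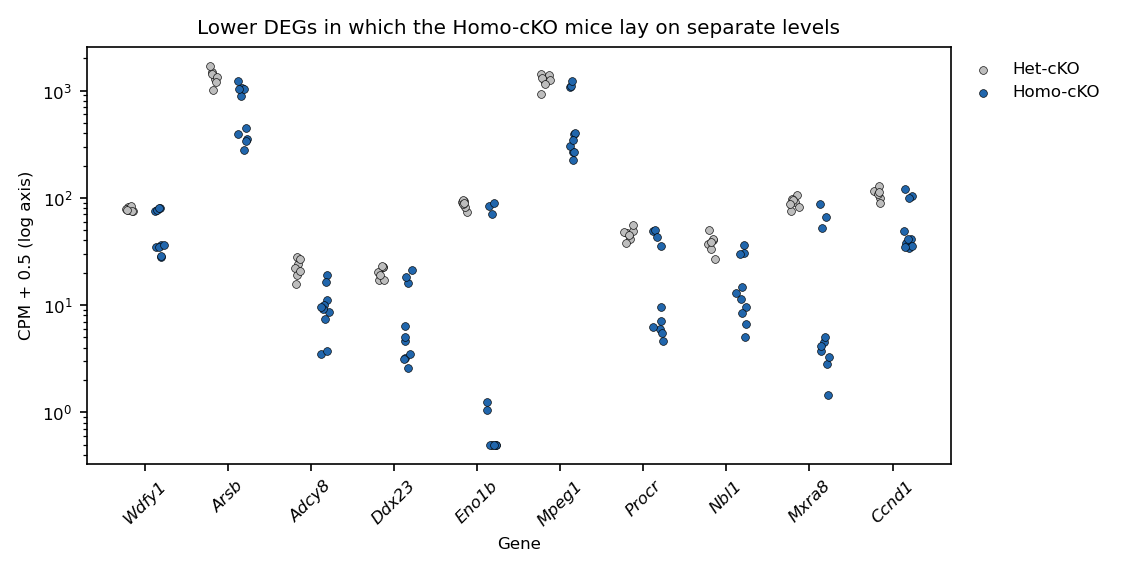
Level (CPM plus 0.5, log axis) of 10 lower DEGs in each Het-cKO mouse (gray) and each Homo-cKO mouse (blue). The Homo-cKO mice lie on both sides of a gap, as for Mpeg1 at 1070 to 1224 against 223 to 403 CPM, and for Adcy8 only 2 of the 8 mice above the gap lie within the Het-cKO range.

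Gm8615 and Eno1b, both among the lower DEGs, share sequence with a gene that moved the other way. Gm8615 was at 0, 0.312 and 1.07 CPM in the Homo-cKO mice and 8.59, 10.4 and 11.7 CPM in the Het-cKO mice (log2 fold change -4.58, SE 0.41, adjusted p = 2.92e-06), and 63.9% of its 25-base sequences occur in Gnpda1, the glucosamine-6-phosphate deaminase gene on chromosome 18. Gnpda1 was at 116, 131 and 156 CPM in the Homo-cKO mice and 65.4, 75.4 and 89.5 CPM in the Het-cKO mice (log2 fold change 0.81, SE 0.077, adjusted p = 3.4e-06), and the sum of the pair was 116, 131 and 157 CPM against 74.2, 85 and 99.9 CPM, so the groups also did not overlap in the sum. Eno1b shares 83.5% of its 25-base sequences with the enolase gene Eno1. Eno1b was at 70.7 to 89.4 CPM in Homo-cKO F1, F3 and F4, at 0 to 0.751 CPM in the other 7, and at 73.2 to 95.7 CPM in the Het-cKO mice, and its call (adjusted p = 0.0312) was lost without Homo-cKO M1, M2, M3, M4 or M5 (adjusted p of 0.0533 to 0.058). The sum of Eno1 and Eno1b was 373, 525 and 606 CPM against 407, 454 and 464 CPM, with overlap. On chromosome 18 as a whole, where Bin1 lies at chr18:32377230-32435737, 6.1% of 295 genes tested were DEGs, within the 3.93% (chromosome 10) to 8.84% (chromosome 1) of the other autosomes, and within 20 Mb of Bin1 8 of 145 genes were lower and 2 higher (6.9%).

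The higher DEGs of smallest p were higher in the mice with low Fos as well. Fth1, the ferritin heavy chain that stores iron, was at 968, 1130 and 1363 CPM in the Homo-cKO mice and 646, 717 and 819 CPM in the Het-cKO mice (log2 fold change 0.69, SE 0.071, adjusted p = 9.94e-06). The cytokine gene Il1a was at 170, 233 and 321 CPM in the Homo-cKO mice and 94, 104 and 126 CPM in the Het-cKO mice (log2 fold change 1.08, SE 0.12, adjusted p = 1.76e-05). Tpd52, the nucleosome-binding gene Hmgn2 and the replication fork gene Tipin rose by 0.81, 0.62 and 0.92 (adjusted p = 2.36e-05, 2.36e-05 and 3.47e-05). In all 5 genes and in Gnpda1 the 10 Homo-cKO mice lay above the 7 Het-cKO mice. Without the 4 Fos-high mice these calls held except that of Hmgn2, which was at 0.58 with an adjusted p of 0.000235. The antisense model Plxna4os1 rose by 1.03 (adjusted p = 0.000977) where Plxna4 fell, and without strand the reads of the pair could in part be exchanged.

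The immediate-early genes were all positive, 21 of 21 tested, with 15 higher DEGs and a median of 1.75. Over all genes tested 2.23% were higher DEGs. Only 21 of the 30 listed genes passed the count filter, which a gene could pass through the Homo-cKO mice alone. The counts and the median describe the genes tested, and the same limit applies to the histone, cytokine, interferon and MHC class II lists. Fos was at 0.368, 6.26 and 1476 CPM in the Homo-cKO mice and 0.255, 0.805 and 1.29 CPM in the Het-cKO mice (log2 fold change 9.16, SE 1.99, adjusted p = 0.00344), and the groups overlapped because Homo-cKO F4, F5 and M5 were within the Het-cKO range. Egr1 was at 12.8, 21.2 and 3531 CPM in the Homo-cKO mice and 6.12, 9.68 and 12.2 CPM in the Het-cKO mice, so that even the lowest Homo-cKO mouse lay above the highest Het-cKO mouse (log2 fold change 6.88, SE 1.5, adjusted p = 0.00356). The number of higher DEGs was 7, with a median of 0.681, without the 4 Fos-high mice, 4 with the 04xx mice alone and 6 by limma-voom, by which neither Fos nor Egr1 passed (adjusted p = 0.607 and 0.296). Egr1 was at 0.50 in the 04xx mice alone (adjusted p = 0.0908) and Fos at 0.42 (adjusted p = 0.68), neither of which passed the test, while both remained DEGs without the 4 Fos-high mice (Egr1 0.77, adjusted p = 0.0144, and Fos 1.87, adjusted p = 0.0496). Of 32 histone genes tested, of 89 listed, 7 were higher DEGs (median 0.505), and 1 was with either of those subsets.

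**Figure D5:**
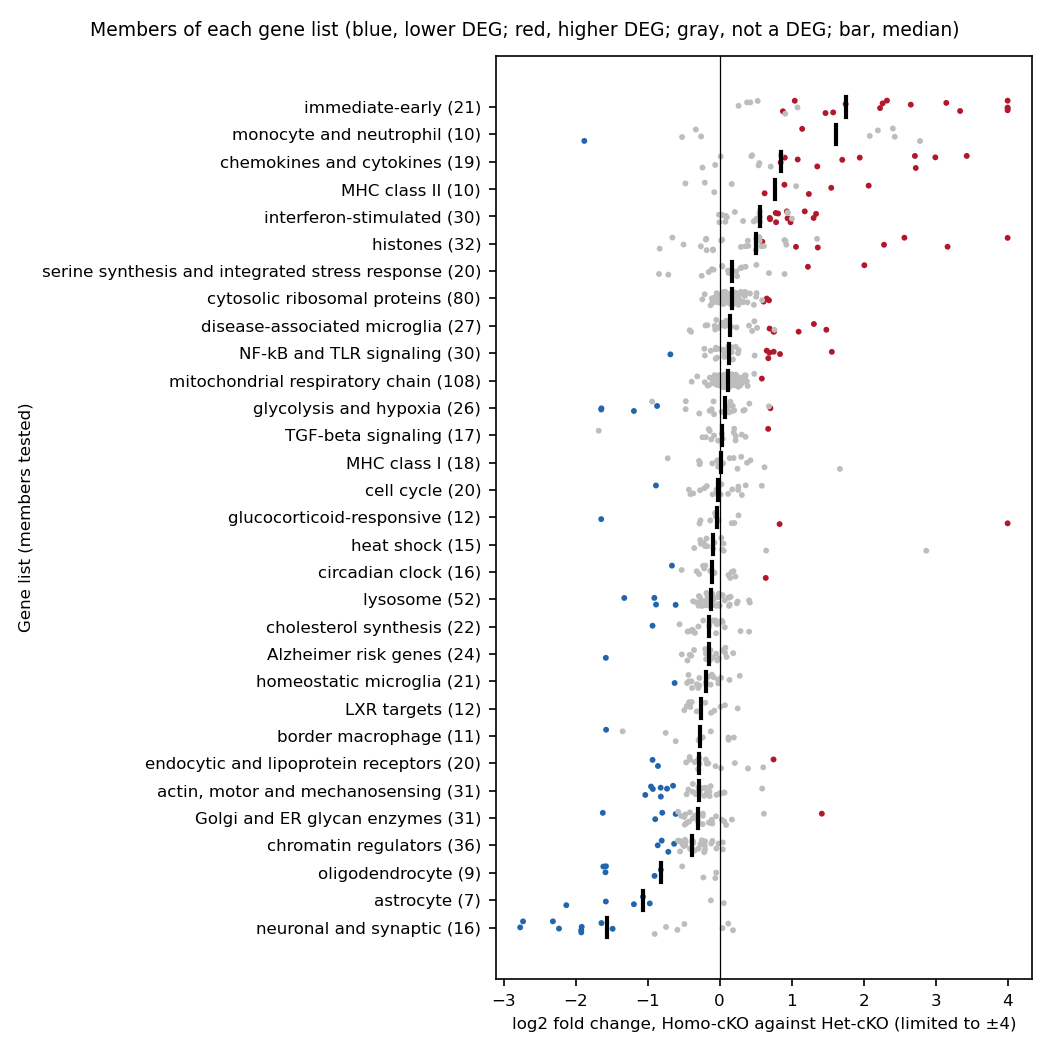
Log2 fold change of Homo-cKO against Het-cKO mice (horizontal axis, limited at 4 in either direction) for each tested member of 31 gene lists, ordered by median (black bar). The number tested is in parentheses, and the medians run from -1.56 for neuronal and synaptic genes to 1.75 for immediate-early genes.

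Chemokines and cytokines were higher DEGs in 10 of 19 members tested (median 0.85), of 24 listed, and in 8 of 18 without the 4 Fos-high mice. For the lists of this paragraph, the shares over all genes tested were 2.23% higher and 3.7% lower DEGs. Ccl2, which attracts monocytes, was at 3.2, 9.91 and 33.4 CPM in the Homo-cKO mice and 0.767, 1.33 and 2.17 CPM in the Het-cKO mice (log2 fold change 3.43, SE 0.57, adjusted p = 0.000551), with no overlap. Ccl3, Ccl4, Ccl7 and Ccl12 rose by 2.72, 1.95, 3.00 and 1.70, Tnf by 2.71 and Il1b by 1.36 (adjusted p of at most 0.00919 for each of these), and Tnf did not pass without the 4 Fos-high mice (adjusted p = 0.068). Of 30 genes of NF-kB and Toll-like receptor signaling, 6 were higher DEGs and 1, the DNA-sensing receptor gene Tlr9 (-0.68, adjusted p = 0.00336), was lower, with a median of 0.135. The inducible regulators Nfkbiz and Zc3h12a rose by 1.56 and 0.84 (adjusted p = 0.00105 and 0.00103), each without overlap. Tlr1 rose by 0.69 (adjusted p = 0.00103) and shares 20% of its 25-base sequences with Tlr6.

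Interferon-stimulated genes were positive in 28 of 30 members tested, 11 of them higher DEGs (2.23% over all genes tested), with a median of 0.562. Ifit2, a translation inhibitor of the antiviral response, was at 5.62, 9.35 and 17.3 CPM in the Homo-cKO mice and 2.13, 4.35 and 4.74 CPM in the Het-cKO mice (log2 fold change 1.31, SE 0.25, adjusted p = 0.0017), with no overlap. Rtp4, Slfn2, Ifitm3, Ifi27l2a and Oas1a, which makes the activator of RNase L, rose by 0.94, 0.70, 0.98, 0.93 and 1.18 (adjusted p of at most 0.00532 for each of these), and reads of Oas1a may be shared with Oas1g, which holds 72.4% of its 25-base sequences. The number of higher DEGs was 8 of 29 without the 4 Fos-high mice and 5 with the 04xx mice alone. The core motif of the interferon-stimulated response element, which is TTTC, any 2 bases and TTTC again, was found on either strand in 11 of 23 matched promoters of this list (47.8%), in 240 of 8956 promoters of genes tested (2.68%) and in 821 of all 27025 (3.04%). Of the 8 higher DEGs with a matched promoter, 3 held it, and that of Oas1a (chr5:120907526-120907775, minus strand, GRCm38.p6) is shown because it holds overlapping copies close to the start, in capitals as their reverse complement, in the 250 bases before the start.
Oas1a: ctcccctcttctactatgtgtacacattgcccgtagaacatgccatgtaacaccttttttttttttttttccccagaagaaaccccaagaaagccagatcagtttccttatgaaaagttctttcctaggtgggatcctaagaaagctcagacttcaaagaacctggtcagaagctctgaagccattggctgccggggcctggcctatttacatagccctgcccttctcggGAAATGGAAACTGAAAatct

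Of 10 tested genes of MHC class II presentation, 5 were higher DEGs (2.23% over all genes tested) with a median of 0.762. H2-Eb1, a beta chain, was at 15.5, 26.7 and 53.3 CPM in the Homo-cKO mice and 2.09, 6.25 and 15.3 CPM in the Het-cKO mice (log2 fold change 2.07, SE 0.36, adjusted p = 0.000696), with no overlap, and H2-Aa, H2-Ab1 and the invariant chain gene Cd74 rose by 1.55, 1.24 and 0.90 (adjusted p = 0.0012, 0.00105 and 0.00834). The fifth, H2-DMa (0.62), lost its call without Het-cKO M3 or M4 or Homo-cKO F2, F3 or M4 (0.54 to 0.57). Of 18 MHC class I genes none was a DEG (median 0.0168). Among 27 disease-associated microglial genes 6 were higher DEGs, 10 were higher and 2 lower at an adjusted p below 0.05, and the median was 0.14. Over all genes tested 2.23% were higher DEGs, and 11.1% were higher and 11% lower at an adjusted p below 0.05. The lectin receptor gene Clec7a was at 7.44, 15.6 and 33.6 CPM in the Homo-cKO mice and 1.87, 6.09 and 9.91 CPM in the Het-cKO mice (log2 fold change 1.48, SE 0.29, adjusted p = 0.00154). Lysozyme, Lyz2, was at 193, 370 and 485 CPM in the Homo-cKO mice and 100, 159 and 186 CPM in the Het-cKO mice, with no overlap (log2 fold change 1.31, SE 0.16, adjusted p = 6.83e-05), and shares 40.5% of its 25-base sequences with Lyz1. Axl, Cst7 and Lgals3 rose by 0.75, 0.76 and 1.10 (adjusted p = 0.00476, 0.016 and 0.0096), while Trem2, the receptor needed for the full program, fell by 0.42 on the log2 scale (adjusted p = 0.00319). With the 04xx mice alone 10 of the 27 were higher DEGs, and 9 without the 4 Fos-high mice.

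The ribosomal and respiratory chain genes were mostly positive, and most members did not pass the test. For comparison, 11.1% of all genes tested were higher and 11% lower at an adjusted p below 0.05, and 2.23% were higher DEGs. Of 80 cytosolic ribosomal protein genes 65 were positive (median 0.168), 21 were higher and none lower at an adjusted p below 0.05, and Rps28 (0.69, adjusted p = 0.000376), Rps2 and Rpl22l1 were higher DEGs, of which Rps2 missed the fold threshold without Het-cKO M1 or M3 or Homo-cKO F2, F3 or M4 (0.52 to 0.58) and Rpl22l1 without Homo-cKO F1 (0.51). Of 108 genes of the mitochondrial respiratory chain 88 were positive (median 0.12), 21 were higher and none lower at an adjusted p below 0.05, and Ndufa7 rose by 0.48 without overlap (adjusted p = 0.000111). Most of these transcripts are short, and with the offsets for GC content and exonic length the medians were 0.125 and 0.0583.

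In other lists the calls went in both directions or were few. Among 26 genes of glycolysis and hypoxia the median was 0.0675, with Pfkm, a muscle-type phosphofructokinase (-0.87, adjusted p = 0.000551), Ddit4, Eno2 and Aldoc lower and the mitophagy receptor gene Bnip3 higher (0.71, adjusted p = 0.000286). Eno2 and Aldoc are also on the neuronal and astrocyte lists, and their calls were lost without Het-cKO F4 (Eno2, adjusted p = 0.0549) and without Het-cKO F1 or M4 (Aldoc, adjusted p = 0.0614 and 0.0695). Ddit4, an inhibitor of mTORC1 that glucocorticoids induce, was at 4.75, 6.72 and 10.1 CPM in the Homo-cKO mice and 9.08, 20.1 and 60.5 CPM in the Het-cKO mice (log2 fold change -1.65, SE 0.29, adjusted p = 0.000839), while Mt1, on the same glucocorticoid list, rose by 0.83 (adjusted p = 8.58e-05). In serine synthesis and the integrated stress response (20 tested, median 0.178), Psat1 rose by 1.23 (adjusted p = 0.0063), with Homo-cKO M4 at 65.4 CPM and the other Homo-cKO mice at 13.5 to 28 CPM. Among 16 clock genes Hlf fell by 0.66 on the log2 scale and Cry1 rose by 0.64, and both calls were lost without single mice, Hlf without Het-cKO M4 (-0.577) or Homo-cKO M4 (-0.585) and Cry1 without Het-cKO M1 (0.52) or Homo-cKO F3 (0.54). Of 24 Alzheimer's disease risk genes 19 were negative (median -0.146), Clu was the only DEG (-1.58, adjusted p = 0.0133), and 6 were lower at an adjusted p below 0.05, among them App (-0.45, adjusted p = 0.00115) and Plcg2 (-0.40, adjusted p = 0.00381). All genes tested gave 3.7% lower DEGs and 11% lower at that threshold. TGF-beta signaling (17 tested), the cell cycle (20) and heat shock (15) had medians of 0.0318, -0.0193 and -0.0882, with 1, 1 and 0 DEGs (Id2, 0.67, and Ccnd1). The call of Id2 was lost without Het-cKO F2, F4, M1 or M4 or Homo-cKO F1, F2 or M2 (adjusted p of 0.0535 to 0.0642).

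Within females 223 genes were lower (1.81%) and 147 higher (1.19%), and within males 213 were lower (1.72%) and 126 higher (1.02%), with 46 lower and 37 higher in both sexes. The male counts rested on 3 Het-cKO mice, and the lower count was 32 without Het-cKO M1, 29 without M4 and 378 without M3, and 138 without Homo-cKO M2, and the higher count was 23 without Het-cKO M1 and 25 without M4. The higher count within females was 95 without Het-cKO F4. Sparc fell by 0.62 on the log2 scale in females and by 0.63 in males (adjusted p = 4.94e-05 and 0.000128 within each sex), Npc1 by 1.01 and 0.73 (4.94e-05 and 0.00258), and Rrbp1 by 0.86 and 0.84 (0.000289 and 0.00133). No gene differed between the sexes in its genotype effect at an adjusted p below 0.05 by edgeR's quasi-likelihood test (smallest 0.31, with 1026 genes at an unadjusted p below 0.05), and 87 did by DESeq2. Xist, which is expressed in females, fell by 1.02 on the log2 scale (adjusted p = 0.00915), at 32.7, 52.9 and 126 CPM in 5 Homo-cKO females against 109, 144 and 163 CPM in 4 Het-cKO females, and was at most 0.121 CPM in the 8 males.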

How the data were processed

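RNA of sorted microglia from single mice was made into cDNA with the SMARTer v4 ultra low input kit and into libraries with Nextera XT, which does not mark strand, and was sequenced single-end. The values are expected counts per gene, which the authors estimated with RSEM on Ensembl R84 gene models after aligning reads to mm10 with OmicSoft OSA4, and which were deposited without scaling for depth or length. Versions of these tools, the strand setting and the treatment of reads that map to several genes are not given in the sources used here. The table has 1 column per mouse. Per the study's methods, libraries of poor quality had been removed before testing, and labels without a column were not analysed here.

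Expected counts were rounded to whole numbers. The 10 Homo-cKO and 7 Het-cKO mice were compared with the quasi-likelihood test of edgeR 4.0.16 (R 4.3.3) with TMM normalization, the filterByExpr filter, and genotype and sex as terms, with Benjamini-Hochberg adjustment over all genes tested. DEGs had an adjusted p below 0.05 and a change above 1.5-fold. Genes within each sex and the genotype by sex interaction were tested in the same way. Fold changes are log2 values from the fit. SE is an approximate standard error, the absolute log2 fold change divided by the square root of the quasi-likelihood F statistic. A prior count of 2 was used where single-mouse levels are on the log2 CPM scale. Mice are named by genotype and sex with a number in accession order. In the 136 pairs of mice the correlation of log2 CPM was 0.925 to 0.979 and the smallest mean chi-square per gene was 7.65, where 1 is counting noise alone, so that no library was a copy of another. The labels give 1 mouse per library.

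Gene names and biotypes came from GENCODE M21, which matched 42929 of 43411 identifiers and left 482 unmatched. Coordinates are of GRCm38, the assembly also called mm10. Sharing between genes was the percent of 25-base sequences in common. Promoters came from RefSeq (GRCm38.p6).

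Genes were named by a rule: Bin1; among DEGs whose mean log2 CPM was not below 0 and that have a standard symbol, the 10 lower and 6 higher of smallest p and the 6 lower and 4 higher of largest change; the 2 lower and 1 higher clone models of smallest p; up to 4 members of smallest p in each gene list; Cst7, Clec7a, Axl and Lyz2; and the 10 lower DEGs without overlap of highest level. Other list members, the other genes of the gap and shared-sequence paragraphs, and the microglial markers were named after their values were seen. Some genes that the rule would name are not reported here. The groups compared and the gene lists were chosen with earlier results of these data known.

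Alternatives were DESeq2 1.42.0, limma-voom (limma 3.58.1), a robust fit, other normalizations, filters and thresholds, WT mice in the fit, no sex term, either number range of Homo-cKO mice alone, offsets for GC content and exonic length, and each mouse left out in turn. A fit without the 4 Fos-high mice and one of protein-coding genes only were chosen after seeing the data. The code was tested on simulated data.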

Additional observations from a re-analysis of the deposited data

Results flagged for a closer look

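In each group, the mouse with the highest or lowest level of each named gene was looked at for a gap to the nearest mouse that was large against the range of the group, by Dixon's test at 95%. Chance flags about 1 in 20 groups, which is 18 of the 366 pairs of gene and group looked at, and 20 were found. No explanation was tested for any of them.

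Among the Homo-cKO mice, F3 was low in the amyloid precursor gene App (112 CPM against 140 to 163 in the others) and in the interferon signaling gene Irf9 (69.9 against 80.7 to 92.9 CPM). F2 was low in Axl (13.6 against 21.1 to 31 CPM), F1 in Med13l (32.4 against 43.2 to 52.4 CPM) and M3 in the serine synthesis gene Psph (10.9 against 13.9 to 17.8 CPM). F5 was high in the B cell receptor gene Cd79b (53.8 against 28.8 to 39.1 CPM). M4 stood apart in 3 genes, as the highest mouse in Psat1 (65.4 against 13.5 to 28 CPM) and the lowest in the immunoproteasome gene Psmb9 (54.8 against 67.4 to 75.7 CPM) and in Tgfb1 (252 against 301 to 340 CPM).

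Among the Het-cKO mice, F1 stood apart in 5 genes. It was the highest in the immediate-early genes Junb (221 against 167 to 188 CPM), Ier3 (8.49 against 2.25 to 3.74 CPM) and Ppp1r15a (35.1 against 22.9 to 26 CPM) and in Cyp51 (31.4 against 22.8 to 25.7 CPM), and the lowest in the Toll-like receptor adaptor gene Myd88 (94.9 against 105 to 114 CPM). M1 was low in Cry1 (4.77 against 7.74 to 10.8 CPM) and in the glucose transporter gene Slc2a1 (65.3 against 90.2 to 110 CPM). M3 was low in H2-Aa (4.75 against 13.3 to 22.3 CPM) and Dync1h1 (69.8 against 94.2 to 106 CPM), M4 in Eno1 (319 against 352 to 376 CPM), and F4 was at 0 in the histone gene Hist2h2aa2 (1.5 to 4.35 CPM in the others).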

How the results depend on the processing

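No paired analysis was possible because the numbers of the mice were given in accession order and pair no samples. Number range and genotype are confounded, the male counts rest on 3 Het-cKO mice, and low-level genes have few counts. The 457 lower DEGs became 1361 without a fold threshold, 169 in a test against 1.2-fold, 191 at an adjusted p below 0.01, 266 with the 04xx mice alone, 248 without the 4 Fos-high mice and 304 among protein-coding genes only, and the 275 higher DEGs became 1371, 146 and 152 under the first 3 of these. By DESeq2 there were 529 lower and 307 higher DEGs, and by limma-voom 527 and 221 (70.5% lower). When each mouse was left out there were 314 to 531 lower and 234 to 285 higher DEGs. Within females, lower and higher DEGs were 1.81% and 1.19% of the genes tested. They were 0.931% and 2.91% with total counts, 6.18% and 5.61% without a fold threshold, 0.745% and 0.38% against 1.2-fold, 0.996% and 0.486% at 0.01, 0.689% and 0.467% with the 04xx mice and 1.12% and 0.734% without the Fos-high mice, and the lower were 1.19% with offsets for GC content and exonic length. Left-out fits gave 1.23% to 2% lower and 0.761% to 1.31% higher. Within males they were 1.72% and 1.02%, with 2.63% and 1.81% by DESeq2, 2.67% and 2.27% without a fold threshold, 0.324% and 0.235% against 1.2-fold and 0.299% and 0.21% at 0.01, and the lower were 1.15% with the 03xx mice and 1.1% without the Fos-high mice, and the higher 0.631% by limma-voom. Left-out fits gave 0.233% to 3.02% lower and 0.185% to 1.47% higher. The sex interaction, with 0 genes, had 87 by DESeq2, 11 with the 03xx mice, 1 with the 04xx mice and 0 to 7 in left-out fits (7 without Homo-cKO F5). Among named genes that were not DEGs, Cdh5 (0.25) changed sign by limma-voom (-0.115) and ranged from -0.0262 (without Homo-cKO M4) to 0.592 in left-out fits, and Hspa1a (2.87) was at -3.11 with the 04xx mice and -0.128 without the Fos-high mice. Of the 186 named genes 113 were DEGs, and 88 of these were called in every left-out fit that tested them. Of the 17 such fits, 10 tested Eps8l1 and 16 tested Vsnl1, and both genes are among the 88. A gene that a fit did not test is not counted as a lost call. The calls lost were 12 by limma-voom, 12 with total counts, 10 with offsets, 13 with the 03xx mice, 29 with the 04xx mice and 28 without the Fos-high mice, and none of the 113 changed sign. Causes of these changes were not tested.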

Other observations

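The remaining lists of other blood and vessel cells gave few calls. Over all genes tested 3.7% were lower and 2.23% higher DEGs. Of 10 tested genes of monocytes and neutrophils, 6 were positive and 4 negative, with a median log2 fold change of 1.62. The chemokine receptor gene Ccr2, which marks blood monocytes, was at 7.96, 12.1 and 20.5 CPM (lowest, median and highest) in the Homo-cKO mice and 2.81, 6.3 and 9.61 CPM in the Het-cKO mice, and rose by 1.15 (SE 0.23, adjusted p = 0.00197 by edgeR's quasi-likelihood test), a call kept in every fit that left out a mouse. The matrix protease gene Mmp9 was a lower DEG (-1.88, adjusted p = 0.0441) and lost its call without any 1 of 12 mice, Het-cKO F1, F2, F3, F4 or M3 or Homo-cKO F1, F2, F3, F4, F5, M1 or M2 (adjusted p of 0.0514 to 0.0873). The summed level of the list was 19.1 to 115 CPM in the Homo-cKO and 11.9 to 69.3 CPM in the Het-cKO mice, with overlap.

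Of 16 lymphocyte genes only 2 were tested, both negative. Klrd1, a receptor of natural killer cells, was at 2.38, 3.93 and 12.5 CPM in the Homo-cKO mice and 7.57, 12.2 and 21.9 CPM in the Het-cKO mice (-1.18, adjusted p = 0.0217), and lost its call without Het-cKO M4 (adjusted p = 0.0603). Of 15 endothelial and mural genes 4 were tested, with a median of -0.0353 and Pdgfrb as the only DEG. Of 12 tested glucocorticoid-responsive genes 7 were negative (median -0.0326), with Ddit4 lower and Mt1 and Dusp1 higher. Dusp1 did not pass without the 4 Fos-high mice (0.828, adjusted p = 0.0599) or with the 04xx mice alone (0.615, adjusted p = 0.214), both by edgeR's quasi-likelihood test. By limma-voom it did not pass either (3.41, adjusted p = 0.371). Fkbp5 and Tsc22d3, on the same list, were at 0.26 and -0.28 and did not pass the test (adjusted p = 0.219 and 0.417).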
